A study of Mus musculus with 8 samples.

Results

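The 48 genes described here encode the contractile apparatus, calcium handling, energy supply and muscle-specific regulators of skeletal muscle. They were chosen by gene symbol from the 24675 probe sets with 1 gene symbol on the array, out of 25429 probe sets in all, and each of the 48 had 1 probe set. Whole subcutaneous tumors of the mouse melanoma line B16-F10 were measured, 4 from C57BL/6J mice fed a chow diet (CD) and 4 from mice fed a high fat high cholesterol diet (HFHCD), which the sample titles call HFD. Per the study's methods the mice were female, had been on their diet for 2 weeks, received the melanoma cells in the abdominal flank at 9 weeks of age, and were sampled on day 9. No genetic change is given for either group, both carried the same tumor line, and 1 array was hybridised per tumor. Values are log2 expression, so a difference of 1 is a doubling. Since whole tumors were lysed, fewer muscle cells in a tumor and less RNA per muscle cell cannot be told apart.

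Skeletal muscle contracts when myosin thick filaments slide along actin thin filaments inside the sarcomere, a unit bounded by Z-discs and held together by the giant proteins titin and nebulin. Calcium released from the sarcoplasmic reticulum binds troponin C on the thin filament and starts contraction, and a calcium pump returns it to the store. Fast and slow fibres use different versions of most of these proteins. In mice a thin sheet of striated muscle, the panniculus carnosus, lies under the skin of the trunk. The B16-F10 line derives from melanocytes, and the 8 melanocyte lineage markers had list means between 11.94 and 12.09 in all 8 tumors.

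Of the 48 genes, 19 were lower in tumors from the HFHCD group, 0 were higher and 29 did not pass limma's test at an unadjusted p under 0.05. Over all 24675 genes tested, 3.91% were lower and 4.76% higher at this threshold, 8.68% in all. The 48 genes were chosen with earlier results of these data known. Setting their counts beside the shares of all genes is therefore no test of the list. The median log2 fold change was -0.31 over the 48 genes and 0.00 over all genes, and 42 of the 48 had a value below 0. The lowest adjusted p among the 48 was 0.423, so 0 of them passed after Benjamini-Hochberg adjustment over all genes, as did 0 of all genes tested (2141 passed unadjusted). In 6 of the 48 genes every HFHCD tumor lay below every CD tumor, against 2.27% of all genes, and the reverse held for 0 of the 48, against 2.93%.

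The CD tumors were far from uniform. Tumors CD 1 and CD 3 were the highest pair of the 8 for 25 of the 48 genes, against 7.5% of all genes. They were also the highest pair for 18 of the 19 lower genes. Those 19 were picked for higher values in CD, and the same share among all lower genes of the array was not counted. In the 19 lower genes the median excess over the mean of the HFHCD tumors was 1.34 in CD 1, 1.77 in CD 3, 0.58 in CD 2 and 0.11 in CD 4. Tumor CD 4 lay above every HFHCD tumor for only 7 of these 19 genes. The median SD of the 48 genes was 0.42 in CD and 0.15 in HFHCD, against 0.20 and 0.14 over all genes. Without CD 1 and CD 3, 5 genes remained lower: Myh4, Acta1, Atp2a1, Actn3 and Mybpc1, when 7.2% of all genes were lower. The same 5 genes were lower under each of the 18 alternatives tried. The count of lower genes was 10 without CD 3, 11 without HFHCD 1, 8 without HFHCD 3 and 26 without CD 4 (14 without CD 1). The share of all genes that were lower in these fits was 3.55%, 2.56%, 3.23% and 4.23% (7.16% without CD 1).

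**Figure D1:**
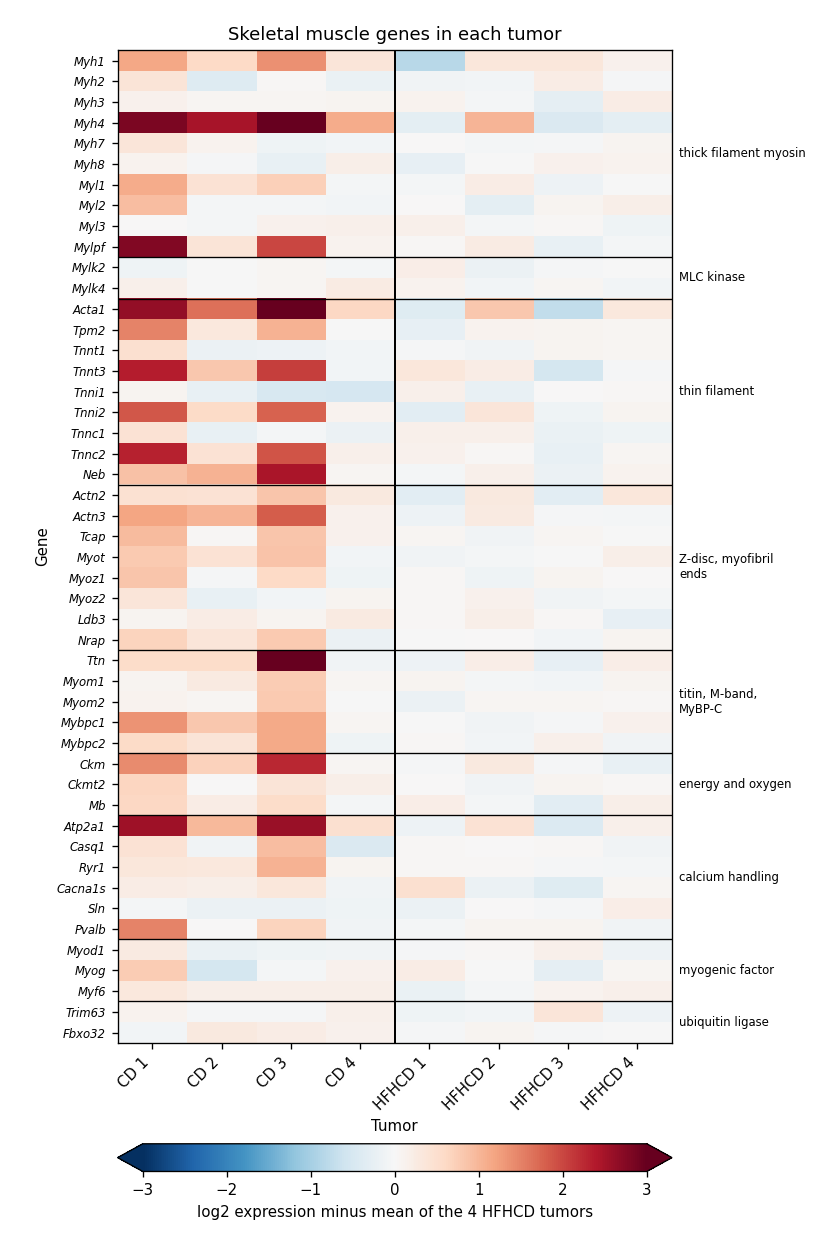
Heat map of the 48 genes (rows, by role) in the 8 tumors (columns). Colour gives log2 expression minus the mean of the 4 HFHCD tumors for that gene, with values beyond 3 at the end of the scale, and the strongest signal stands in CD 1 and CD 3.

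Of the 10 thick filament genes 4 were lower, all of them of fast fibres (Myh4, Myh1, Myl1 and Mylpf). The count was 2 without CD 1, CD 3, HFHCD 1, HFHCD 3 or HFHCD 4, each left out alone, and 1 without CD 1 and CD 3. Myh4 encodes the heavy chain of type IIb fibres, the fastest type in the mouse. Its log2 expression was 7.62, 7.27, 9.83 and 5.92 in CD tumors 1 to 4 and 4.50, 5.81, 4.35 and 4.51 in HFHCD tumors 1 to 4. The groups did not overlap, and the closest values were those of CD 4 and HFHCD 2. Myh4 was 7.30-fold lower on HFHCD (log2 fold change -2.87, SE 0.71, p = 0.00269, adjusted p = 0.423 by limma; exact two-sided permutation p = 0.0286, the smallest that 4 tumors against 4 allow). It was the largest decrease of any gene tested. In CD 3 its value was 32.9 times the HFHCD level, with the mean of the HFHCD tumors taken on the log2 scale. Without CD 1 and CD 3 the log2 fold change of Myh4 was -1.80.

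Below, the p given first for a gene is limma's, unadjusted, and an exact p is from the two-sided permutation test over tumors. Myh1, the heavy chain of fast type IIx fibres, measured 5.69, 5.12, 5.90 and 4.90 on CD and 3.69, 4.88, 4.88 and 4.67 on HFHCD. Its groups did not overlap either, although CD 4 lay only just above HFHCD 2 and HFHCD 3 (log2 fold change -0.87, SE 0.30, p = 0.0175, exact p = 0.0286). Myh2, the heavy chain of type IIa fibres, had a log2 fold change of 0.04 (p = 0.817, exact p = 0.886). The slow heavy chain gene Myh7 and the developmental genes Myh3 and Myh8 had log2 fold changes of -0.06, -0.08 and 0.00, and their values stayed between 3.03 and 4.23. That range lies below 4.49, the level under which 40% of all values on these arrays fall. Myh3, Myh2, Myh1, Myh4 and Myh8 stand side by side in this order on chromosome 11 (GRCm38.p6) and are close in sequence, and how far their probe sets separate them was not tested.

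Mylpf, the regulatory light chain of fast fibres, measured 6.99, 4.58, 6.19 and 4.31 on CD and 4.24, 4.46, 3.97 and 4.14 on HFHCD, so that CD 1 and CD 3 stood clear and CD 2 lay just above the HFHCD tumors (log2 fold change -1.32, p = 0.0327, exact p = 0.0571; its tumor values were chosen for display after they were seen). Myl1, the fast essential light chain, measured 5.55, 4.87, 5.14 and 4.38 on CD and 4.37, 4.64, 4.28 and 4.42 on HFHCD (log2 fold change -0.56, p = 0.0305, exact p = 0.0857). Here CD 4 lay within the HFHCD range. The slow light chain genes Myl2 and Myl3 had log2 fold changes of -0.18 and -0.06 and did not pass the test. The myosin light chain kinase genes did not pass it either. Mylk2, the skeletal muscle kinase, measured 5.27, 5.39, 5.46 and 5.34 on CD and 5.61, 5.23, 5.38 and 5.41 on HFHCD. Mylk4 ranged from 3.45 to 3.78 over the 8 tumors.

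**Figure D2:**
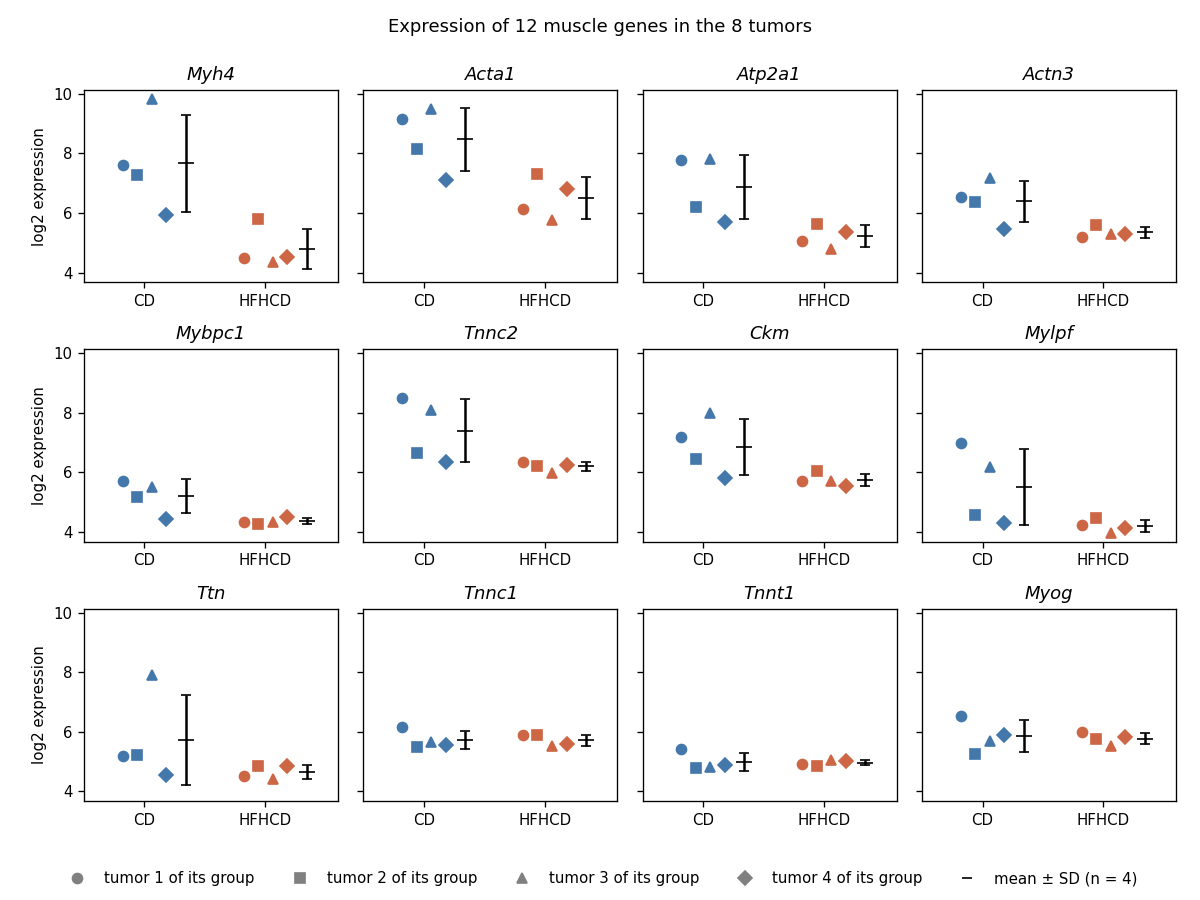
Log2 expression of 12 muscle genes in the 4 CD tumors (blue) and 4 HFHCD tumors (orange), with the mean and SD (n = 4) to the right of each group. Symbols mark the tumor number. CD 1 and CD 3 together lie highest for most of the fast fibre genes, whereas for Tnnc1, Tnnt1 and Myog CD 1 is highest and CD 3 does not stand out. Levels are comparable between tumors for 1 gene, not between genes.

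Of the 9 thin filament genes, 6 were lower. The count was 3 without CD 3, 2 without HFHCD 3, 4 without CD 1 and 1 without CD 1 and CD 3. Acta1, the skeletal muscle actin and the main protein of the thin filament, measured 9.14, 8.14, 9.48 and 7.11 on CD and 6.12, 7.30, 5.75 and 6.81 on HFHCD. Only CD 4 and HFHCD 2 crossed, and Acta1 was 3.92-fold lower on HFHCD (log2 fold change -1.97, SE 0.52, p = 0.00381, adjusted p = 0.423 by limma; exact permutation p = 0.0571). Other striated and smooth muscle actins resemble it in sequence. Of these, the cardiac actin gene Actc1 had values between 3.19 and 3.64, and the smooth muscle actin gene Acta2 had a log2 fold change of -0.22 (p = 0.371, exact p = 0.514; Acta2 was named after its values were seen).

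The troponin complex, which makes the thin filament sensitive to calcium, gave a matched comparison of fast and slow versions. All 3 fast subunit genes were lower, and 0 of the 3 slow ones. Of the fast genes, 2 were lower without CD 1, only Tnni2 without CD 3 or without HFHCD 3, and 0 without CD 1 and CD 3, where Tnnt3, Tnni2 and Tnnc2 had log2 fold changes of -0.37, -0.34 and -0.30. Tnnc2, the fast calcium-binding subunit, measured 8.50, 6.64, 8.08 and 6.36 on CD and 6.33, 6.23, 5.98 and 6.26 on HFHCD, with no overlap but with CD 4 only slightly above HFHCD 1 (log2 fold change -1.19, SE 0.43, p = 0.0214, exact p = 0.0286). Its slow counterpart Tnnc1 measured 6.15, 5.50, 5.65 and 5.55 on CD and 5.88, 5.88, 5.52 and 5.60 on HFHCD, and the groups overlapped (log2 fold change 0.01, SE 0.16, p = 0.966, exact p = 0.971; displayed after its values were seen). Tnni2, the fast inhibitory subunit, measured 6.94, 5.65, 6.84 and 5.18 on CD and 4.75, 5.44, 4.94 and 5.17 on HFHCD (log2 fold change -1.08, p = 0.0178, exact p = 0.0571), whereas the slow gene Tnni1 had a log2 fold change of 0.28 (p = 0.0855, exact p = 0.171). Tnnt3, the fast tropomyosin-binding subunit, had a log2 fold change of -1.29 (p = 0.0247, exact p = 0.114), and its slow counterpart Tnnt1 of -0.02 (p = 0.904, exact p = 0.971). All 3 slow troponin genes were above 4.49 in all 8 tumors. Neb, which encodes the giant thin filament protein nebulin, and Tpm2, the gene of beta-tropomyosin, fell by 1.11 and 0.70 on the log2 scale.

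The 250 bases before the RefSeq start site (build GRCm38.p6) are given for the 7 genes below, 5′ to 3′ on the gene's strand. They are some of the lower genes and Tnnc1, which did not pass the test. Myh4, Acta1, Atp2a1 and Mybpc1 were lower under every alternative, Tnnc2 and Tnnc1 are the fast and slow troponin C pair, and Ckm is the muscle creatine kinase gene. Capitals mark each E-box, CANNTG, the motif bound by the myogenic basic helix-loop-helix factors such as MyoD and myogenin.
Myh4 (chr11:67237562-67237811, plus strand): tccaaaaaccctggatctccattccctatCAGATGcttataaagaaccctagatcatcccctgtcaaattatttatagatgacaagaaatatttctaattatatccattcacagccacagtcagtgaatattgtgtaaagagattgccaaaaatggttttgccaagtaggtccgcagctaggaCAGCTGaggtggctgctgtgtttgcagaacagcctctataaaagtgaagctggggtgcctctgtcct
Acta1 (chr8:123894776-123895025, minus strand): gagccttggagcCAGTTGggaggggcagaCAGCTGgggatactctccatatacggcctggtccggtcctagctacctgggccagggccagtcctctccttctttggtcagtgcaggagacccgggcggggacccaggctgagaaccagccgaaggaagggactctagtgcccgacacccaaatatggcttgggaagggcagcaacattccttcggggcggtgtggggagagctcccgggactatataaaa
Atp2a1 (chr7:126463074-126463323, minus strand): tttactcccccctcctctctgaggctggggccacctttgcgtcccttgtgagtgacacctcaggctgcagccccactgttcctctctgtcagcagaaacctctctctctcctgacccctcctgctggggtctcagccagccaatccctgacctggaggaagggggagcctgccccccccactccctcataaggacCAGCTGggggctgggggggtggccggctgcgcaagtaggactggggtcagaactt
Mybpc1 (chr10:88605153-88605402, minus strand): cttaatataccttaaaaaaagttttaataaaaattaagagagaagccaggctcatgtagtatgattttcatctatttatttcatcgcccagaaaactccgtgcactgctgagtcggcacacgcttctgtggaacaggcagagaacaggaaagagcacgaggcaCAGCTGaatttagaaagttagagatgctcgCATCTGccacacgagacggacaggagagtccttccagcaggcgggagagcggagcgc
Ckm (chr7:19410844-19411093, plus strand): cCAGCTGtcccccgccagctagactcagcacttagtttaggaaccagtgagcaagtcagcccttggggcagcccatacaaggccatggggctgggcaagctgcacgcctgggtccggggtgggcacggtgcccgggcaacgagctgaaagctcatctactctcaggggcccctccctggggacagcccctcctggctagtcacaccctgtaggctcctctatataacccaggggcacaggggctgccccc
Tnnc2 (chr2:164779735-164779984, minus strand): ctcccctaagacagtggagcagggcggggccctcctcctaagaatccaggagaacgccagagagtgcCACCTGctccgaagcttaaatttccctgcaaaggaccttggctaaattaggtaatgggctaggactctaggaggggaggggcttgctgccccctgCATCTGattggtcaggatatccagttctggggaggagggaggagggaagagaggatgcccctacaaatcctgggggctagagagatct
Tnnc1 (chr14:31208062-31208311, plus strand): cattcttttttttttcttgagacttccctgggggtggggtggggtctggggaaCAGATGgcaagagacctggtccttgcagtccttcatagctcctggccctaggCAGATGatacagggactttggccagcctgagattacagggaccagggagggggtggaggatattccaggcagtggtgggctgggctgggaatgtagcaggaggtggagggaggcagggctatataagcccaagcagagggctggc
The form CAGCTG begins 67 bases before the start in Myh4, 221 in Acta1, 55 in Atp2a1, 87 in Mybpc1 and 249 in Ckm, and neither troponin C window holds it. Promoter windows were matched for 35 of the 48 genes, 42 windows in all, because some genes have several start sites. CANNTG, searched on both strands, was found in 36 of the 42 windows (85.7%), against 66.2% of all 32851 windows of this length. CAGCTG, which is 1 case of CANNTG and reads the same on both strands, was found in 20 of the 42 (47.6%), against 13.0% of all windows. Among the 13 lower genes with a window, 1 window each, it was found in 9. It was found in 11 of the 29 windows of the 22 genes that did not pass. Some of those 22 have several windows, so the 2 counts are not of like units. The MEF2 motif was found in 7 of the 42 windows (16.7%), against 2.92% of all windows, and in 2 of the 13. These matches describe the sequence and no test was made of them.

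Of the 8 genes of the Z-disc and myofibril ends 4 were lower, and CD 1 and CD 3 were the highest pair for 6. The count of lower genes was 1 without CD 3, HFHCD 1 or HFHCD 3, each left out alone, 2 without CD 1 or HFHCD 2 and 1 without CD 1 and CD 3. Actn3, the alpha-actinin of fast fibres that cross-links actin at the Z-disc, measured 6.54, 6.37, 7.17 and 5.48 on CD and 5.20, 5.61, 5.30 and 5.28 on HFHCD. Only HFHCD 2 lay above the lowest CD tumor, CD 4, and Actn3 was 2.06-fold lower (log2 fold change -1.04, SE 0.30, p = 0.00635, exact p = 0.0571). Actn2, the alpha-actinin found in all striated fibres, measured 5.58, 5.55, 5.95 and 5.42 on CD and 4.80, 5.41, 4.80 and 5.46 on HFHCD (log2 fold change -0.51, p = 0.0229, exact p = 0.0571). Myot, the gene of the Z-disc protein myotilin, measured 4.68, 4.34, 4.76 and 3.83 on CD and 3.80, 3.84, 3.90 and 4.09 on HFHCD (log2 fold change -0.50, p = 0.0283, exact p = 0.114). Tcap, which encodes the titin cap protein telethonin, fell by 0.48 on the log2 scale. Of the other Z-disc and myofibril genes, Nrap, Myoz1, Ldb3 and Myoz2 did not pass, with log2 fold changes of -0.40, -0.32, -0.15 and -0.04.

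Mybpc1 encodes the slow-type myosin-binding protein C, which is known to occur in fast fibres as well. It measured 5.70, 5.17, 5.50 and 4.43 on CD and 4.35, 4.27, 4.34 and 4.50 on HFHCD. CD 4 lay within the HFHCD range and the other 3 CD tumors above it (log2 fold change -0.84, SE 0.24, p = 0.00627, exact p = 0.0571). The fast gene Mybpc2 measured 4.35, 4.17, 4.91 and 3.65 on CD and 3.81, 3.69, 3.93 and 3.67 on HFHCD and did not pass (log2 fold change -0.50, p = 0.0547, exact p = 0.143). Ttn, the gene of titin, measured 5.20, 5.21, 7.92 and 4.54 on CD and 4.51, 4.86, 4.40 and 4.84 on HFHCD, and its log2 fold change of -1.06 had an SE of 0.61 (p = 0.115, exact p = 0.0857; displayed after its values were seen). The value in CD 3 alone set Ttn apart, at 9.63 times the HFHCD level (mean taken on the log2 scale) against 1.46 times in CD 1. The M-band gene Myom1 measured 4.08, 4.27, 4.75 and 4.05 on CD and 3.91 to 4.08 on HFHCD, and Myom2, also of the M-band, had a log2 fold change of -0.23. Neither passed the test.

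Of the 3 muscle energy and oxygen genes 2 were lower, and all 3 were highest in the same pair of tumors. The count was 0 without HFHCD 4, 0 without CD 1 and CD 3, and 1 without any single one of CD 1, CD 3, HFHCD 1, HFHCD 2 or HFHCD 3. Ckm, the cytosolic creatine kinase that buffers ATP, measured 7.17, 6.44, 8.01 and 5.81 on CD and 5.72, 6.04, 5.72 and 5.54 on HFHCD. Only HFHCD 2 crossed CD 4 (log2 fold change -1.10, SE 0.40, p = 0.0205, exact p = 0.0571). Ckmt2, the mitochondrial creatine kinase of striated muscle, measured 4.79, 4.17, 4.53 and 4.32 on CD and 4.16, 4.04, 4.23 and 4.18 on HFHCD (log2 fold change -0.30, p = 0.0494, exact p = 0.0857). Mb, the gene of the oxygen store myoglobin, measured 6.04, 5.62, 5.96 and 5.34 on CD and 5.62, 5.35, 5.08 and 5.59 on HFHCD and did not pass (log2 fold change -0.33, p = 0.0946, exact p = 0.171).

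Of the 6 calcium-handling genes 2 were lower, and the count was 1 when any single HFHCD tumor was left out. Atp2a1, the calcium pump SERCA1 of fast fibres, measured 7.77, 6.19, 7.80 and 5.71 on CD and 5.05, 5.64, 4.80 and 5.36 on HFHCD. The groups did not overlap, and Atp2a1 was 3.14-fold lower (log2 fold change -1.65, SE 0.46, p = 0.00562, adjusted p = 0.437 by limma; exact permutation p = 0.0286). Ryr1, the calcium release channel, measured 5.12, 5.09, 5.82 and 4.87 on CD and 4.82, 4.82, 4.75 and 4.73 on HFHCD. Its groups did not overlap, and its decrease was smaller (log2 fold change -0.45, SE 0.18, p = 0.035, exact p = 0.0286). Pvalb, which encodes the fast fibre calcium buffer parvalbumin, measured 6.15, 4.67, 5.33 and 4.56 on CD and 4.60, 4.74, 4.74 and 4.56 on HFHCD, with only CD 1 and CD 3 above the HFHCD range (log2 fold change -0.52, p = 0.124, exact p = 0.343). Casq1, the fast calsequestrin that binds calcium in the store, and Cacna1s, the voltage sensor subunit, had log2 fold changes of -0.20 and -0.16 and did not pass. Sln, the gene of the pump inhibitor sarcolipin, had a log2 fold change of 0.14 and stayed between 3.26 and 3.64.

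Regulators of the muscle programme did not pass the test with all 8 tumors, although Myf6 was lower without HFHCD 4. Myod1, which commits cells to the muscle lineage, measured 5.29, 4.81, 4.89 and 4.92 on CD and 4.98, 5.04, 5.17 and 4.87 on HFHCD. Myog, the gene of the differentiation factor myogenin, measured 6.55, 5.24, 5.71 and 5.90 on CD and 5.99, 5.77, 5.51 and 5.82 on HFHCD, and CD 1 was highest and CD 2 lowest. Myf6, the factor of mature fibres, measured 4.41, 4.26, 4.27 and 4.27 on CD and 3.91, 4.04, 4.20 and 4.24 on HFHCD. Its groups did not overlap (exact permutation p = 0.0286), but limma gave p = 0.0639, and all 8 values lay below 4.49. The ubiquitin ligase genes of muscle protein breakdown did not pass either, and their groups overlapped, although Fbxo32 was lower without CD 1. Trim63, the gene of MuRF1, measured 7.94, 7.79, 7.79 and 7.98 on CD and 7.70, 7.75, 8.18 and 7.67 on HFHCD (log2 fold change -0.05, 0.13 SE). Fbxo32, the gene of atrogin-1, measured 5.06, 5.42, 5.37 and 5.27 on CD and 5.10, 5.23, 5.09 and 5.13 on HFHCD (log2 fold change -0.15, 0.10 SE).

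By fibre type, 9 of 14 fast fibre genes and 1 of 8 slow fibre genes were lower, and 0 of either were higher. The median log2 fold change was -0.96 for the fast and -0.05 for the slow genes. The mean of the fast genes was 6.41, 5.38, 6.46 and 4.94 in CD tumors 1 to 4 and 4.75, 5.05, 4.75 and 4.82 on HFHCD. CD 1 and CD 3 thus stood well above the rest, CD 2 somewhat above, and CD 4 within the HFHCD range. The mean of the slow genes was 4.98, 4.48, 4.52 and 4.41 on CD and 4.54, 4.42, 4.47 and 4.51 on HFHCD, so that only CD 1 stood out. CD 1 was also the highest of the 8 tumors for 6 of the 8 slow genes, and for 25.8% of all genes tested. The difference between the classes was not tested. In at least 4 arrays 10 of the 14 fast and 4 of the 8 slow genes were above 4.49. Without CD 1 and CD 3 the fast median was -0.27 and 3 fast genes were lower (5 without CD 3 alone or HFHCD 3 alone), whereas Myh2 and Casq1 rose by 0.30 and 0.27 and the slow gene Tnni1 by 0.36 on the log2 scale.

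**Figure D3:**
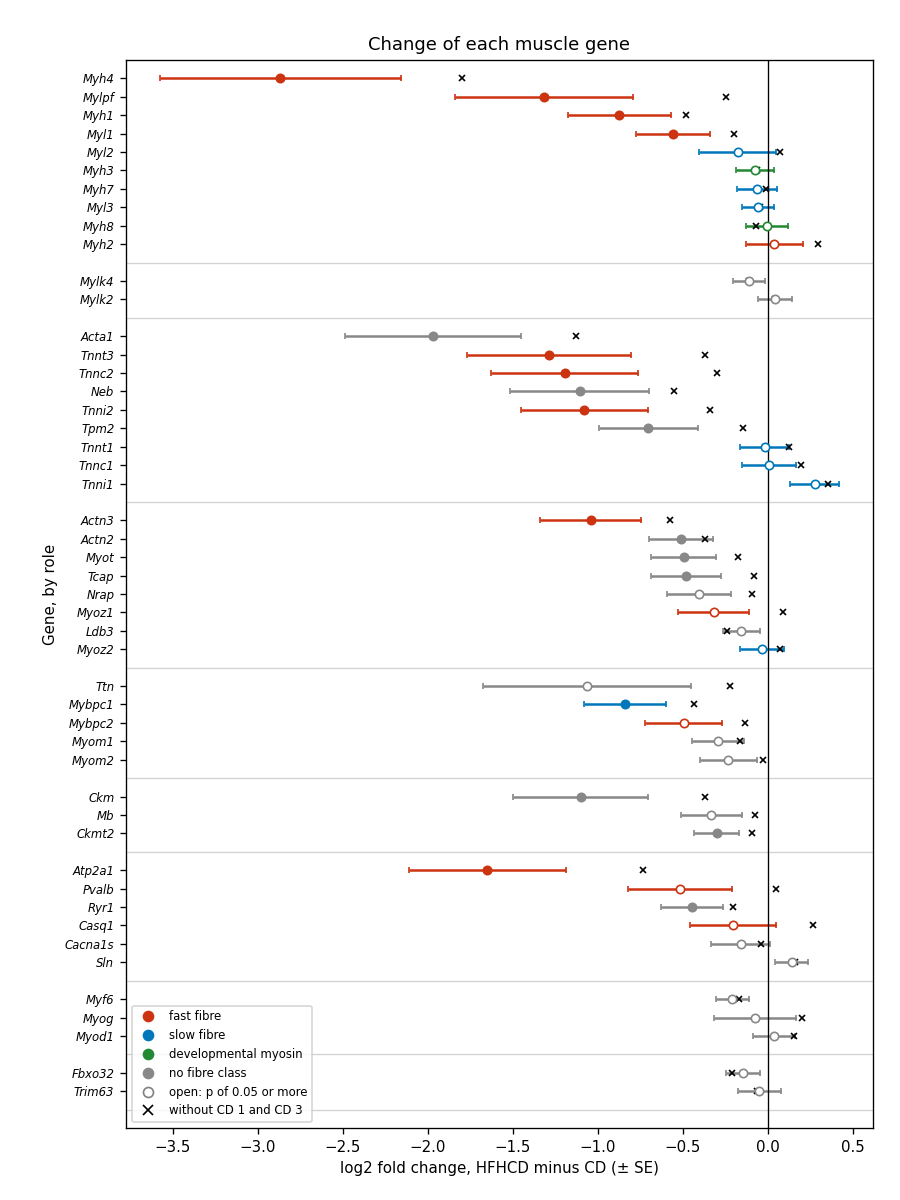
Log2 fold change, HFHCD minus CD, of each of the 48 genes with its SE, in role groups separated by lines and coloured by fibre class. Filled points passed the test, and crosses give the same value without CD 1 and CD 3. The fast genes reach -2.87 while all slow genes except Mybpc1 lie between -0.18 and 0.28.

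The tumors CD 1 and CD 3 did not carry the same profile. Of the 48 genes, 28 were higher in CD 1 and 20 in CD 3. CD 1 was the highest of the 8 tumors for 21 of the 48 genes and for 25.8% of all genes. For CD 3 these figures were 16 and 13.1%. How far the differences between the pair belong to the whole arrays was not tested. The genes that stood highest in CD 3 relative to CD 1 were Ttn, Myh4 and Neb, with CD 1 minus CD 3 at -2.72, -2.21 and -1.59 on the log2 scale. Those that stood highest in CD 1 relative to CD 3 were Myl2, Myog, Pvalb and Mylpf, with CD 1 minus CD 3 at 0.99, 0.84, 0.83 and 0.79. Of the slow genes, 7 of 8 were higher in CD 1 than in CD 3. Acta1 and Atp2a1 differed less between the pair, by 0.34 and 0.03.

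Most other genes of skeletal muscle, which are not among the 48, did not pass the test. Of 64 measured, 6 were lower, 1 was higher and 57 did not pass, with a median log2 fold change of 0.00. Single values in parentheses from here on are log2 fold changes. The 6 lower genes were 9.4% of the 64, against 3.91% of all genes tested. CD 1 and CD 3 were the highest pair of the 8 tumors for 17 of the 64, against 7.5% of all genes. In at least 4 arrays 42 of the 64 were above 4.49. The count of lower genes was 3 without HFHCD 1 and 3 without CD 1 and CD 3. Of 20 sarcomere and costamere genes 0 passed in either direction, and those with the smallest p were Speg (0.23), Cmya5 (-0.29) and Flnc (-0.25). Of 12 triad and calcium release genes 2 were lower. Trdn, which encodes the release channel partner triadin, measured 4.85, 4.27, 5.38 and 4.11 on CD and 4.05, 3.86, 3.64 and 3.88 on HFHCD, without overlap (log2 fold change -0.80, p = 0.011, exact p = 0.0286). Trdn was above 4.49 in only 2 of the 8 arrays. Srl, the gene of the calcium-binding sarcalumenin, fell by 0.33. Smtnl1, with the next smallest p, did not pass (0.13). Of 13 muscle-type metabolic genes 2 were lower. Car3, a carbonic anhydrase of muscle and fat, measured 8.65, 7.23, 9.49 and 6.49 on CD and 4.93, 6.25, 4.83 and 6.25 on HFHCD, and Apobec2 fell by 0.62. Slc2a4, the insulin-regulated glucose transporter GLUT4, did not pass (0.31). Of 8 neuromuscular junction genes 0 passed, and those with the smallest p were Chrne (0.09), Rapsn (0.14) and Chrna1 (0.07). Of 11 satellite cell and fusion genes, Megf10 and the growth inhibitor gene Mstn were lower (-0.64 and -0.34, the latter dim in all tumors), and Pax3, a factor of both muscle and melanocyte precursors, was higher by 0.28.

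Fibroblast and macrophage markers were mostly lower as well. Of 10 fibroblast markers 9 were lower and 0 higher, with list means of 7.80, 6.75, 8.25 and 6.64 on CD and 5.89 to 6.03 on HFHCD. Among them Postn, the matrix protein periostin, and Lum, the proteoglycan lumican, fell by 1.31 and 0.94. Of 8 macrophage markers 6 were lower, with means of 8.02, 7.11, 8.45 and 6.87 on CD and 6.32 to 6.98 on HFHCD, and Ctss and Csf1r fell by 1.59 and 0.79. Without CD 1 and CD 3, 7 fibroblast and 2 macrophage markers were lower, and 3 macrophage markers without HFHCD 3 alone (4 without CD 1 or without CD 3). Of 7 adipocyte markers 2 were lower (Fabp4 by 1.08 and Retn by 0.48), with means of 4.86 to 5.50 on CD and 4.69 to 5.06 on HFHCD. The adipocyte count was 1 without CD 1, CD 3 or HFHCD 4, each left out alone, and 0 without CD 1 and CD 3. Of 10 keratinocyte markers 0 passed (Lgals7 at -0.31 and Dsg3 at -0.30 had the smallest p), although 2 were lower without CD 1 or HFHCD 1 and 3 without CD 4, and 9 were highest in CD 3, whose list mean was 6.60 against 4.57 to 5.34 in the other 7 tumors. The part of these cells in the differences of the muscle genes was not tested.

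List means of markers of other muscle types and of the tumor itself had narrower ranges over the tumors than those of fibroblast and macrophage markers. Single genes could vary more, such as the cardiac marker Nppb, from 7.19 to 8.68 (named after its values were seen). Of 9 cardiac markers 0 passed (smallest p for Tnni3 at -0.18 and Actc1 at -0.13), with means between 4.88 and 5.18 in the 8 tumors, and of 8 smooth muscle markers only Myh11 was lower (-0.29; Tagln at -0.45 did not pass), with means between 5.41 and 5.82. Of 8 endothelial markers Pecam1 was lower (-0.31, while Kdr at -0.37 did not pass), and 3 were lower without CD 1 and 0 without CD 3. Endothelial list means lay between 5.76 and 6.32 and were highest in CD 4. Of 3 Schwann cell markers 0 passed, and Mbp (0.16) and Pmp22 (-0.18) had the smallest p. Of 8 melanocyte lineage markers 0 passed (smallest p for Tyr at 0.20 and Slc45a2 at 0.13), with a median log2 fold change of 0.02.

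**Figure D4:**
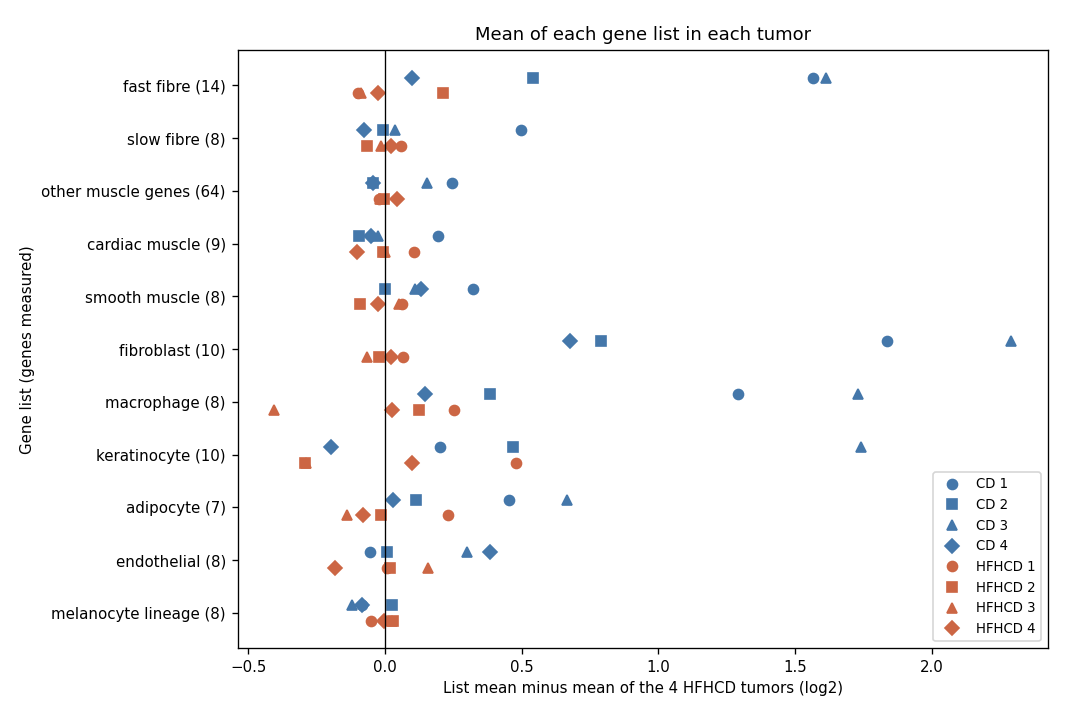
Mean log2 expression of each gene list in each tumor minus the mean of the 4 HFHCD tumors for that list (blue, CD; orange, HFHCD; symbols, tumor number). The lists of fast fibre, fibroblast and macrophage genes lie farthest to the right in CD 1 and CD 3, and the keratinocyte list in CD 3 alone.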

How the data were processed

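RNA from every whole tumor was measured on its own MouseGene2.0ST array (Affymetrix). The deposited values are log2 expression per probe set. Per the labels, the authors processed them by RMA in Affymetrix Expression Console, and no version of either is known here. RMA subtracts background and forces all arrays to a common distribution before probes are summarised, so differences near background are compressed. Arrays have no read depth, and 4 tumors a group limit the precision. The p-values reflect only how far these tumors vary among themselves.

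Titles gave the groups, and the platform annotation gave a single symbol for 24675 of the 25429 probe sets (0 had several, 754 had none here). limma 3.58.1 (R 4.3.3; lmFit, eBayes) compared HFHCD with CD on the values as deposited, with no covariate and no filter. A gene passed at an unadjusted p under 0.05, the threshold in the study's methods, and Benjamini-Hochberg adjustment ran over every gene. Those methods name a two-sided Student's t-test within limma, which was run here as an alternative. The exact two-sided permutation test went through the 70 ways to divide the 8 tumors. Genes under 4.49 (the 40th percentile of all values) were called dim. Windows before start sites were taken from RefSeq (GRCm38.p6). Python 3.11.15 and matplotlib 3.10.9 drew the plots.

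The 48 genes, the gene lists and the tests were chosen with earlier results of these data known. Of the list genes, 8 symbols were not matched. Tumor values are given for the 3 genes of each role with the smallest p and for all without overlap, and each other list is represented by its 3 (muscle) or 2 (markers) smallest p. Exceptions are marked. The alternatives left out each tumor in turn or CD 1 with CD 3, added a replicate block, replaced the test by the methods' t-test or by a trended and robust prior, weighted arrays, rescaled values (median centring, quantile, cyclic loess), dropped dim genes, or kept all probe sets. Array medians ran from 5.03 to 5.19. Principal component 1 (29.9% of the variance) set CD 1 apart and component 2 (28.2%) CD 3. In simulated arrays of 24675 genes, the test called 86.9%, 98.2% and 100% of genes changed by 0.5, 1 and 2 (log2) and 5.23% of unchanged genes. Each simulated gene had the same SD in both groups and varied independently of the other genes. The 48 genes had a median SD of 0.42 in CD and 0.15 in HFHCD, and many were high together in CD 1 and CD 3. The simulated shares therefore do not carry over to the 48 genes, and a gene that did not pass may still have changed.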

Additional observations from a re-analysis of the deposited data

Results flagged for a closer look

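Within groups of 4 tumors, 1 tumor stood apart from the other 3, relative to the group's range, in 11 of 162 gene and group combinations examined. About 1 in 20 such groups is marked by chance alone. The values below are the gap to the nearest tumor as a share of the group's range, and shares above the critical value of Dixon's test were marked. A large share can be a small difference. The nearest tumor was at 4.27 for Myf6 in CD, and for Chrne the highest HFHCD tumor was at 4.18 and the nearest at 4.14. All values of these 2 genes lay under 4.49. Of the muscle genes, Myl2 in CD (share 0.965), Tnnt1 in CD (0.834) and Myf6 in CD (0.948) were marked because CD 1 was highest, at 5.09, 5.43 and 4.41. Myom2 was marked in CD (0.866), where CD 3 was highest at 4.91, and in HFHCD (0.861), where HFHCD 1 was lowest at 3.97. HFHCD 1 was also lowest for Tpm2 in HFHCD (0.911), at 4.33. Myh4 in HFHCD (0.892) was marked because HFHCD 2, at 5.81, lay well above the other HFHCD tumors, and Trim63 in HFHCD (0.843) because HFHCD 3 was highest at 8.18. Outside the 48 genes, Chrne in HFHCD (0.849), Rapsn in CD (0.914), where CD 3 was lowest at 7.73, and Mbp in HFHCD (0.881), where HFHCD 2 was lowest at 7.32, were marked.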

How the results depend on the processing

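All 19 lower genes kept a value below 0 under each of the 18 alternatives that measured them. With 1 tumor left out, the count of lower muscle genes ran from 8 to 26, that of fast fibre genes from 5 to 12 and that of other muscle genes from 3 to 7, against 19, 9 and 6, and 0 to 1 of the 48 were higher. Over all genes, 2.56% to 7.16% were lower in these fits, against 3.91% with all tumors. With CD 1 and CD 3 both left out, the counts were 5, 3 and 3, with 3 of the 48 higher, the fast median was -0.27, and Casq1 turned from -0.20 to 0.27. The methods' t-test gave 5 and 3, and array weights, which were lowest for CD 1 (0.263) and CD 3 (0.564), gave 10 and 4, with 1 of the 48 higher. Over all genes, 7.2% were lower without CD 1 and CD 3, 3.39% by the methods' t-test and 6.41% with array weights. The share of all genes that were higher was not counted for the alternatives. The median of the 48 genes kept its sign under all 18, from -0.10 to -0.51, whereas the slow median crossed 0. The replicate block gave 20 lower muscle genes, the 19 among them (same-numbered tumors correlated at -0.26 to 0.27, and numbers are no pairing here). Scaling and normalization alternatives gave 20 or 21, the dim filter 16 of 30 genes tested. Of the 48 genes, 30 were above 4.49 in at least 4 arrays. Of the 18 dimmer ones 3 were lower (Mylpf, Myot and Ckmt2), where signal near background limits what can be seen. The causes of these differences were not tested.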
